A study of Mus musculus with 21 samples.

Results

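Macrophages that still carried Ly-6B at 168 h of a zymosan peritonitis were compared with the cells sampled at 18 h, by gene expression arrays. The comparison used 6 of the 21 arrays of the study, 3 biological replicates in each group. Of 18194 genes that have a probe set of their own, 12169 passed a signal filter and were tested. The mice were female C57BL/6 animals of 7 to 8 weeks given zymosan, a yeast cell wall preparation, into the peritoneal cavity. The 168 h group was sorted from peritoneal lavage as F4/80 med-high and Ly-6B+, and the 18 h group as Ly-6B+/low and Ly-6G-, so the gate differed as well as the time and the effects of gate and time cannot be told apart. Reference levels come from 5 further groups of 3 arrays each: Ly-6B- F4/80 high macrophages of 168 h, F4/80+ CD11b+ macrophages of 72 h, Ly-6B+ Ly-6G- monocytes of 4 h, and, from naive mice, F4/80 high CD11b high resident peritoneal macrophages and Ly-6B+ Ly-6G- bone marrow monocytes. No array of a Ly-6B+ fraction sorted at 18 h by the 168 h gate was analysed here. Whether the biological replicates were single animals or pools was not given in the sources used here, and p-values measure the spread between these samples.

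Ly-6B is the antigen of the 7/4 antibody and marks neutrophils and recently recruited monocyte-derived cells. In a self-limiting peritonitis monocytes enter the cavity, mature into macrophages that clear apoptotic neutrophils, and share the cavity with resident macrophages. Resident peritoneal macrophages are maintained by the transcription factor GATA6 and are known for Timd4 (a phosphatidylserine receptor), Vsig4 (a complement receptor), Alox15 (12/15-lipoxygenase) and Fcna (ficolin A). Classical monocytes are known for Ccr2 (the CCL2 receptor), Vcan (the proteoglycan versican) and Il1b (interleukin-1 beta).

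Values are MAS5 signals, scaled by the authors to a common trimmed mean in every array. Log2 fold changes are differences of mean log2(signal + 15), 168 h Ly-6B+ minus 18 h, given with their standard error (SE), and they understate the change of genes with low signal. A gene was called with a limma adjusted p (Benjamini-Hochberg over 12169 genes) under 0.05 and a log2 fold change of 1 or more in either direction. "Rose" and "fell" are used of called genes. Replicates correlated at r of 0.971 to 0.976 within the groups over log2 signals. The median signal of an array was 69.5 to 79.4 at 18 h and 79.2 to 93.0 at 168 h, and the 3'/5' ratio of the Gapdh control probes was 1.64 to 2.12 at 18 h and 2.17 to 2.89 at 168 h, without overlap. With the ratio as a covariate 737 genes were called higher and 330 lower. Of the 163 genes named here as called against 18 h, 24 were not called in that fit (Ackr3, Adm, Arg1, Ccl2, Ccl7, Ccl12, Fosb, Gbp6, Gbp8, Id3, Ifi30, Igf1, Ighm, Il1r2, Il6, Mcm4, Mcm5, Mertk, Ms4a4b, Rarb, S100a16, Slc16a3, Socs3 and Tnfsf9). When a gene's probe sets were averaged in place of taking the brightest, 19 were not called (Adm, Axl, Egln3, Egr3, Fdft1, Fdps, Hif1a, Ighm, Il13ra1, Itgal, Itgav, Itgb3, Lif, Maf, Man2b1, Mcm3, Ms4a4b, Tlr3 and Vsig4).

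Between 18 h and 168 h, 1182 of the 12169 genes tested changed (9.71%). Of these, 843 were higher in the 168 h Ly-6B+ macrophages (6.93% of genes tested) and 339 were lower (2.79%). These shares are the background for the counts of list and family members given below. Genes that rose included members of the lists of resident macrophages, mitosis and DNA replication. Genes that fell included the monocyte genes Vcan and Cx3cr1, Il1b, and enzymes of cholesterol synthesis and glycolysis. The 3 arrays of each group did not overlap for 4948 genes (40.7% of genes tested) and for 1161 of the called genes (98.2%). Of the called genes, 71.3% were higher. When all arrays were first given the same median, 694 genes were called higher and 452 lower (60.6% higher), and the change of the median gene moved from 0.046 to -0.077 log2 units, so changes below are relative to the scaling as deposited.

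**Figure D1:**
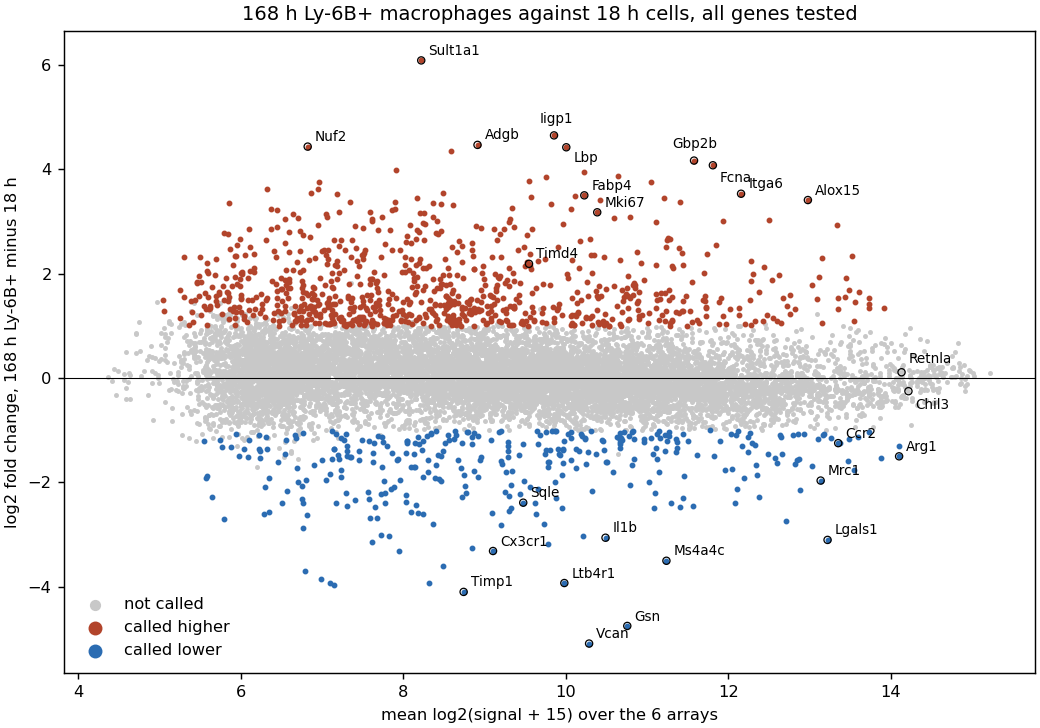
Log2 fold change (168 h Ly-6B+ minus 18 h) against the mean log2(signal + 15) over the 6 arrays for the 12169 genes tested, with called genes in colour and a few genes named. Called genes lie at low and at high signal, 843 above 0 and 339 below, while Retnla and Chil3 lie at high signal close to 0.

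The monocyte and macrophage lineage of the labels was seen in both groups, with macrophage and monocyte genes high in all 6 arrays. Csf1r, the receptor of the macrophage growth factor CSF1, was 25776, 25994 and 32906 in the 18 h arrays and 25531, 28559 and 31917 in the 168 h Ly-6B+ arrays. Adgre1, which encodes the F4/80 antigen used in the 168 h gate, was 16488, 17052 and 16892 and 24049, 23626 and 21068, and did not reach the threshold (log2 fold change 0.44 ± 0.11 SE; limma adjusted p = 0.0053). Of 12 identity genes, Cd33 (a sialic acid-binding receptor; 1.72) and Mertk (a receptor kinase for apoptotic cells; 1.18) rose and Fcgr1 (the high-affinity IgG receptor; -1.74) fell. Of 5 marker genes named for this contrast, Alox15 and Fcna rose, Vcan and Il1b fell, and Retnla did not pass the test. The probe sets assigned to single genes gave no value for Ly6c2 or for Ly-6B itself. Neither is analysed here, so the Ly-6B part of the labels was not checked.

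The largest increase was that of Sult1a1, a phenol sulfotransferase, which was 23.7, 53.6 and 2.75 in the 18 h arrays and 2083, 2394 and 2942 in the 168 h Ly-6B+ arrays (log2 fold change 6.09 ± 0.34 SE; limma adjusted p = 1.3e-10). The mean of the Ly-6B- macrophages was 3820.5. Lbp, the lipopolysaccharide-binding protein, went from 205, 179 and 241 to 4306, 5663 and 4409.6 (log2 fold change 4.43 ± 0.22 SE; adjusted p = 2.2e-11 by limma). Adgb, which encodes androglobin, read 143, 48.5 and 91.7 and then 2432, 2746 and 1724 (4.47). The rule that picked the 12 largest increases took only called genes whose arrays do not overlap between the groups. Fcna, a soluble lectin that starts complement's lectin pathway, read 876, 954 and 757 at 18 h and 13567, 14464 and 16424 at 168 h (log2 fold change 4.08 ± 0.35 SE; limma adjusted p = 3.2e-08). The other 8 of the 12 largest increases were Iigp1 (4.65), Nuf2 (4.44), Gm4951 (4.35), Gbp2b (4.17), Adcy4 (an adenylyl cyclase; 3.99), Jade2 (3.95), Ankrd33b (3.87) and Cpq (carboxypeptidase Q; 3.85). None of the 12 differed by a call between the Ly-6B+ and the Ly-6B- macrophages of 168 h, where 3.94% of genes were called, 1.54% higher in Ly-6B+ cells and 2.41% lower.

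The largest decrease was that of Vcan, which read 8430.3, 7638 and 6004 in the 18 h arrays and 264, 205 and 145 in the 168 h Ly-6B+ arrays (log2 fold change -5.09 ± 0.23 SE; limma adjusted p = 5.9e-12). All 168 h arrays were low, near the Ly-6B- mean of 174, while the 4 h monocytes had a mean of 22389.7. In bulk samples such as these, fewer cells that carry a transcript and less RNA per cell cannot be told apart. Gsn, the actin-severing protein gelsolin, went from 9833, 7714 and 9552 to 421, 169 and 447 (log2 fold change -4.75 ± 0.33 SE). It stayed above the Ly-6B- level of 66.7 ± 22.1 (SD, n = 3; log2 difference 2.06, limma adjusted p = 2.2e-04). Ltb4r1, the leukotriene B4 receptor BLT1, was 3934, 3619 and 4291 at 18 h and 317, 175 and 260.5 at 168 h (log2 fold change -3.93 ± 0.26 SE). Against 40.0, 11.5 and 12.5 in the Ly-6B- arrays it was higher as well (2.92; limma adjusted p = 2.1e-07), so the Ly-6B+ arrays lay between the other groups. Timp1, an inhibitor of matrix metalloproteinases, fell by 4.10 log2 units. The other 8 were Treml2 (-3.96), Galnt6 (an O-glycosylation enzyme; -3.93), Bex6 (-3.93), Prune2 (-3.85), AA467197 (-3.70), Gja1 (the gap junction protein connexin 43; -3.61), Ms4a4c (-3.50) and Cx3cr1 (-3.32).

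**Figure D2:**
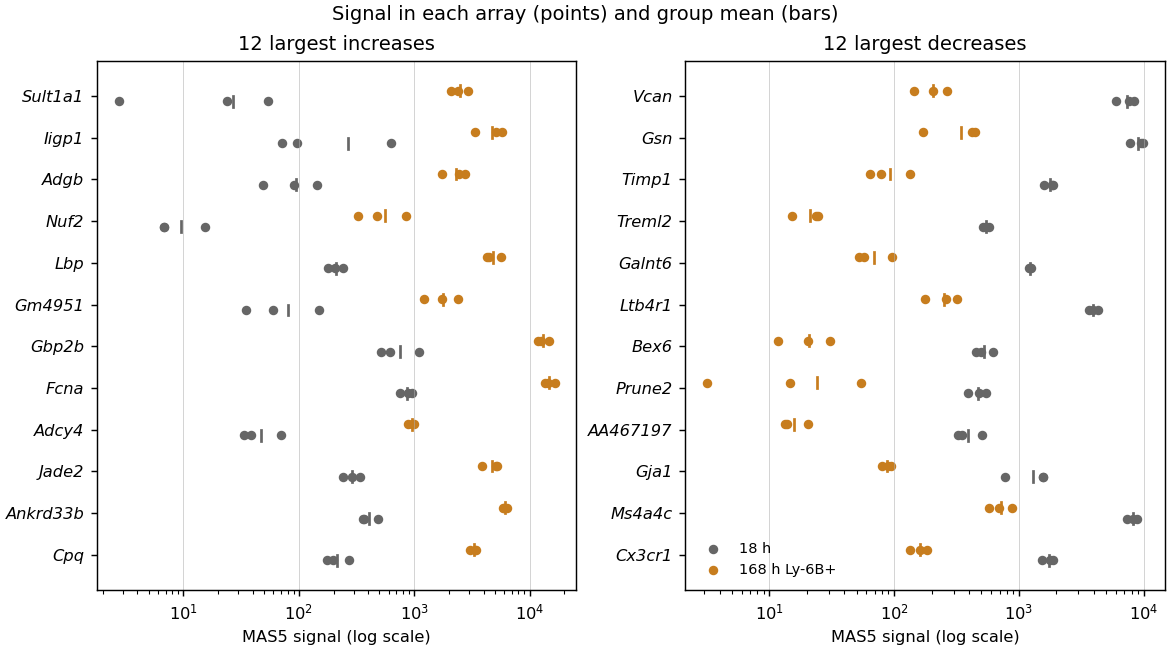
MAS5 signal on a log axis in each array (points) with the group means (bars) for the 12 largest increases (left) and the 12 largest decreases (right), 18 h in grey and 168 h Ly-6B+ in orange. The 24 genes were picked from called genes whose arrays do not overlap between the groups. Vcan goes from 8430.3, 7638 and 6004 to 264, 205 and 145.

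Of the resident macrophage list, 21 of 29 members tested rose and none fell, with a median log2 fold change of 2.12 against 0.046 over all genes tested. Members stood at different shares of the mean of the Ly-6B- macrophages. Alox15 read 2324, 3095 and 2075 at 18 h and 24056, 28327 and 26991 in the 168 h Ly-6B+ arrays (log2 fold change 3.41 ± 0.65 SE; limma adjusted p = 4.9e-04), 84% of the Ly-6B- mean. Prg4, which encodes the lubricant proteoglycan 4, read 4039.7, 4027 and 3179.9 and 26269.5, 29152 and 30905, 87.4% of that mean. The high group was the 168 h arrays in each case. Fcna stood at 81.7%, Icam2 (an adhesion molecule) at 80.9%, Cd5l (a secreted scavenger receptor protein) at 79% and Itga6 (the integrin alpha 6 chain) at 68.9%. None of these 6 genes differed by a call between the Ly-6B+ and Ly-6B- macrophages, though for each of them every Ly-6B+ array lay below every Ly-6B- array.

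Timd4 was in the other class. It read 444, 365 and 232 at 18 h, 1375, 2141 and 1352 in the Ly-6B+ arrays and 16314, 17210.0 and 17216 in the Ly-6B- arrays of 168 h. It rose from 18 h (log2 fold change 2.19 ± 0.34 SE; limma adjusted p = 5.8e-05) and was lower than in Ly-6B- cells (-3.40; limma adjusted p = 7.5e-07), at 9.59% of their mean, and the 3 groups did not overlap. Vsig4 read 811, 817 and 499, then 1348, 2477 and 1220.1, against 19739.5, 21053 and 26637 (1.19 from 18 h, limma adjusted p = 0.042; -3.79 against Ly-6B-), and was at 7.48%. Its rise was not called without 168 h Ly-6B+ replicate 1 or 2 or without any 1 of the 18 h arrays (limma adjusted p of 0.041 to 0.18 with 1 array left out). Tgfb2 (transforming growth factor beta 2) was at 10.7% of the Ly-6B- mean, Aspa (aspartoacylase) at 12%, Ltbp1 (which binds latent TGF beta) at 16.2% and Ptgis (prostacyclin synthase) at 21.7%. All 4 rose from 18 h (2.16, 1.27, 2.15 and 2.12) and were called lower than in Ly-6B- macrophages. Gata6 was intermediate. Its signal was 239, 214 and 171 at 18 h, 1843, 2121 and 1554 in Ly-6B+ and 3722, 4885 and 4487 in Ly-6B- arrays, a rise of 3.06 ± 0.20 (SE) and 42.1% of the Ly-6B- mean (log2 difference -1.24, limma adjusted p = 2.7e-04). Selp (33.6%) and F5 (44.3%), the genes of P-selectin and coagulation factor V, were also partial. Cxcl13, a B cell chemoattractant, was 1461, 2227 and 1039 at 18 h and 2221, 6139 and 1662 at 168 h (0.91; limma adjusted p = 0.12, not called), 12.1% of the Ly-6B- mean.

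**Figure D3:**
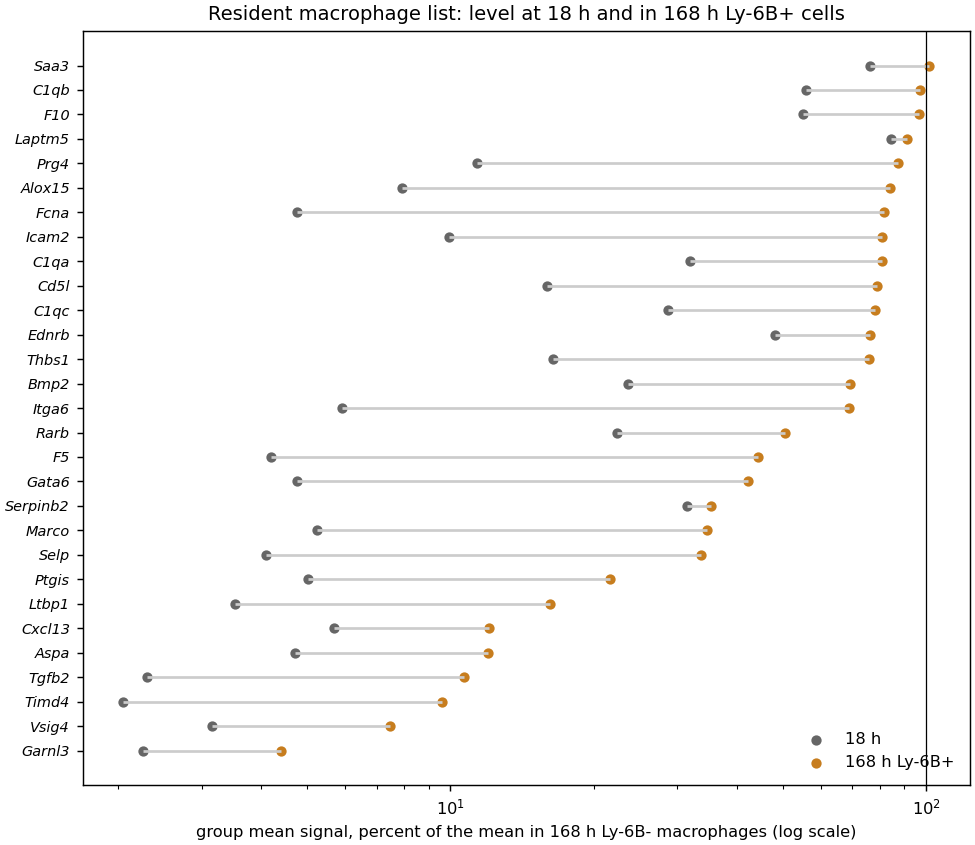
Group mean signal of the 29 tested members of the resident macrophage list at 18 h (grey) and in 168 h Ly-6B+ macrophages (orange), as a percentage of the mean in the 168 h Ly-6B- macrophages, on a log axis. Garnl3, Vsig4 and Timd4 end below 10% at 168 h in the Ly-6B+ cells while Prg4, Alox15 and Fcna end above 80%.

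Of 18 tested members of the list named for classical monocytes, 5 fell and 1 rose, with a median of -0.41. The list name does not make each member, such as Cx3cr1, particular to those cells. Besides Vcan, Cx3cr1 (the fractalkine receptor) went from 1537, 1763 and 1889.8 to 135, 162 and 185 (log2 fold change -3.32 ± 0.39 SE; limma adjusted p = 2.4e-06). Ms4a4c, a member of the MS4A membrane protein family, went from 8191, 7372 and 8916 to 687, 879 and 575. S100a4, a calcium-binding protein of motile cells, went from 21672, 18758 and 26688 to 6023, 6627 and 6838 (log2 fold change -1.77 ± 0.19 SE). Every 168 h array of these genes lay below every 18 h array. By its brightest probe set Ccr2 fell less, from 14390.0, 15272 and 19098 to 8142, 6546 and 5854 (log2 fold change -1.25 ± 0.34 SE; limma adjusted p = 0.0081). Its 3 other tested probe sets gave log2 fold changes of -2.68 to -1.97, so the size of its fall depends on the probe set. In the Ly-6B- macrophages Ccr2 was 146, 231 and 103, so the Ly-6B+ cells were 5.35 ± 0.34 (SE) log2 units higher (limma adjusted p = 3.3e-09) with no array near the other group. Mcemp1, the member that rose, went from 1048, 743 and 1275 to 3454, 3749.7 and 2866 (1.73).

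Chil3 and Retnla, which encode the secreted proteins Ym1 and RELM alpha, did not pass the test. Chil3 read 20934, 22226 and 19368 at 18 h and 21988, 18592 and 13034 in 168 h Ly-6B+ arrays (log2 fold change -0.25 ± 0.41 SE; limma adjusted p = 0.7). The groups overlapped. In the Ly-6B- macrophages Chil3 read 899, 1599 and 225, a log2 difference of 4.63 ± 0.41 (SE; limma adjusted p = 1.5e-07). Retnla read 13335, 17345 and 22395 at 18 h and 16582, 14737 and 26686 at 168 h (log2 fold change 0.11 ± 0.32 SE; limma adjusted p = 0.84) with overlap, and 3665, 3779 and 4641 in Ly-6B- macrophages (2.22; limma adjusted p = 6.6e-05). Both were thus high at 18 h and in the Ly-6B+ macrophages and lower in the Ly-6B- macrophages. At 72 h the means were 2085 for Chil3 and 14475 for Retnla.

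Receptors for chemoattractants and adhesion molecules gave 3 members higher and 5 lower of 24 tested. Those that fell were Ltb4r1, Cx3cr1, Ccr2, Itgax (the CD11c integrin chain; -2.14) and Itgal (the LFA-1 alpha chain; -1.21). Those that rose were Itga6, Icam2 and Ackr3 (an atypical chemokine receptor; 1.45). Itgax read 433, 557 and 424 and 96.6, 81.1 and 109, close to the Ly-6B- mean of 92.2.

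Il1b was the interleukin-1 gene with the largest change. It read 3333, 5882 and 3624 in the 18 h arrays and 663, 458 and 369 in the 168 h Ly-6B+ arrays (log2 fold change -3.06 ± 0.42 SE; limma adjusted p = 1.5e-05). Its mean at 4 h was 19912, and the Ly-6B+ arrays were still higher than the Ly-6B- arrays at 181, 152 and 176 (1.44; limma adjusted p = 0.037), a call that ended without 168 h Ly-6B+ replicate 1 or 2 or any 1 of the Ly-6B- arrays (limma adjusted p of 0.046 to 0.16). Il1rn, the secreted interleukin-1 receptor antagonist, went from 456, 570.4 and 406 to 80.8, 119 and 102 (log2 fold change -2.09 ± 0.21 SE). The 2 other tested probe sets of Il1rn gave smaller falls, at -0.85 and -0.73. Mefv, which encodes the inflammasome sensor pyrin, went from 1017, 1020.4 and 958 to 427, 331 and 360.2 (-1.39). Of 18 members of the interleukin-1 and inflammasome list tested (median 0.048), 12 were not called, 5 fell (also Il18rap and the decoy receptor Il1r2) and 1 rose, Il18bp, the interleukin-18 binding protein (170.0, 151 and 152 and then 388, 475 and 298). Without 168 h Ly-6B+ replicate 3, or without 18 h replicate 2 or 3, 3 members were lower, since Il18rap and Il1r2 were not called. Il18rap was also not called without 168 h Ly-6B+ replicate 2, and 2 members were higher without 168 h Ly-6B+ replicate 3. The sensor gene Nlrp3 and the protease gene Casp1 were not called.

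Of 23 inflammatory mediators tested, 4 rose and 5 fell. The chemokine Cxcl1 read 2703, 7310.1 and 9496 at 18 h and 19555, 24191 and 21737 at 168 h (log2 fold change 1.92 ± 0.41 SE; limma adjusted p = 0.0013). Socs3, a feedback inhibitor of cytokine signalling, read 3431, 7178 and 10316 and 13212, 13661 and 12643 (1.05). For both genes the lowest array was 18 h replicate 1, and the groups did not overlap. Lif (1.59) and Il6 (1.07), both cytokines that signal through gp130, rose as well. Cxcl3 went from 367, 589 and 570.3 to 168, 143 and 119 (-1.71). Ccl2 (-1.22), Ccl7 (-1.65) and Ccl12 (-1.95), monocyte chemoattractants, and Tnfsf9 (-1.26) fell. The 18 h replicate 1 was the lowest of the 18 h arrays for 22 of the 23 genes. Without it 2 members were higher. Without 18 h replicate 2 or 3 the lower count was 2 or 1, without 168 h Ly-6B+ replicate 1 or 3 it was 2 or 1, and with the Gapdh ratio as a covariate 2 were higher and 1 lower. The calls lost were among Ccl2, Ccl7, Ccl12 and Tnfsf9, and Il6 and Socs3. Il6 was also not called without 168 h Ly-6B+ replicate 1 or 2 or 18 h replicate 2.

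Of 22 genes of alternative activation tested, 7 fell, 2 rose and 13 were not called, with a median of -0.37. Mrc1, the mannose receptor, read 14769, 20609 and 18589.8 at 18 h and 3663, 4042 and 6359 at 168 h (log2 fold change -1.97 ± 0.21 SE; limma adjusted p = 7.4e-07). It was still above the Ly-6B- arrays at 1010.3, 1054 and 1157 (2.07; limma adjusted p = 1.1e-06). Arg1, arginase 1, went from 28104, 27586 and 33599 to 7986, 15943 and 8987 (log2 fold change -1.50 ± 0.31 SE; limma adjusted p = 0.0012), with no overlap, and was not called with the Gapdh ratio as a covariate (-1.04; limma adjusted p = 0.097). Tgm2, transglutaminase 2, went from 9198, 7767 and 10888 to 1862, 2674 and 1828 (-2.13), and Cdh1, E-cadherin, from 469, 648 and 600.0 to 39.9, 53.8 and 61.1 (-3.14). Mgl2, Il13ra1 and Pparg fell as well (-1.70, -1.45 and -1.91). Cd36, a receptor for oxidised lipids, rose from 3996, 5235 and 2982 to 10708, 12073 and 13375 (log2 fold change 1.59 ± 0.24 SE), and Igf1 by 1.49. Without 18 h replicate 1 or 3, or any of the 168 h Ly-6B+ arrays, only Cd36 of these 2 was called higher (limma adjusted p of Igf1 0.015 to 0.17 with 1 array left out).

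Genes of apoptotic cell uptake gave 9 members higher and 3 lower of 25 tested (median 0.52). Axl, a receptor kinase for the bridging proteins Gas6 and protein S, read 269.7, 511 and 317 at 18 h and 1209.6, 1288 and 1344 in 168 h Ly-6B+ arrays (log2 fold change 1.82 ± 0.23 SE; limma adjusted p = 7.0e-06), above the Ly-6B- arrays at 584, 515 and 460.5 (1.28; limma adjusted p = 9.7e-04). Mertk went from 2172, 2211 and 2332 to 5579, 4954 and 4806, and Pros1, which encodes protein S, from 1604, 1375 and 1099 to 4965, 3524 and 4135 (1.62). The 168 h arrays were the high ones in each. Timd4, Cd36, the complement genes C1qa and C1qc, the bridging protein Mfge8 (1.33) and the integrin chain Itgb3 rose too. The integrin chain Itgb5 fell from 3645, 3822 and 2752 to 434, 401 and 366 (log2 fold change -3.03 ± 0.16 SE), Itgav fell by 1.39 and the scavenger receptor Stab1 by 1.67.

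Complement genes gave 6 members higher and 1 lower of 19 tested. C1qc read 7761, 8415 and 8863 at 18 h and 17782, 25704 and 24629 at 168 h (log2 fold change 1.43 ± 0.29 SE), and C1qa rose by 1.34. Cfb, factor B of the alternative pathway, rose from 958, 811 and 1262 to 4817, 7615 and 5221 (log2 fold change 2.52 ± 0.23 SE; limma adjusted p = 1.1e-07), and C1ra by 2.09. Of the eicosanoid list 4 members rose and 1, Ltb4r1, fell, of 17 tested. Besides Alox15 and Ptgis, Alox5 (5-lipoxygenase) rose from 1839, 1596 and 1201 to 3717, 3451 and 4086 (1.29) and Ptges (a prostaglandin E synthase) by 1.38.

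Antigen presentation genes of MHC class II gave 2 higher and 2 lower of 15 tested, with a median of 0.49. Over all genes tested 6.93% were called higher and 2.79% lower. H2-Ab1, the class II beta chain, read 7676, 9701 and 12246 at 18 h and 21249, 25377 and 28108 in 168 h Ly-6B+ arrays (log2 fold change 1.35 ± 0.33 SE; limma adjusted p = 0.0038), against 6127, 11578 and 5177 in Ly-6B- arrays (1.79; limma adjusted p = 0.001). The Ly-6B+ arrays were the highest of the 3 groups, without overlap. H2-Ob, which modulates peptide loading, rose by 1.35. The lysosomal protease gene Lgmn fell from 9053, 10886 and 8832 to 2777, 3856 and 3826 (log2 fold change -1.47 ± 0.13 SE) and the thiol reductase gene Ifi30 by 1.03. Without 18 h replicate 3 or without 168 h Ly-6B+ replicate 1, 4 members were higher and 1, Lgmn, lower, and with the Gapdh ratio as a covariate 5 were higher and 1 lower.

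Genes of cell division rose together. Of 32 mitosis genes tested 31 rose and none fell, with a median log2 fold change of 2.81. Of 33 DNA replication genes 21 rose and none fell, with a median of 1.40. Mki67, the proliferation antigen Ki-67, read 480.0, 434 and 382 at 18 h and 6753, 3178 and 3019 in 168 h Ly-6B+ arrays (log2 fold change 3.18 ± 0.54 SE; limma adjusted p = 1.6e-04). Nuf2, a kinetochore protein, went from 6.74, 6.78 and 15.3 to 855, 479 and 327, Cdk1, the mitotic kinase, from 127, 42 and 120.2 to 1728, 989 and 669 (log2 fold change 3.37 ± 0.57 SE), and Ube2c, a ubiquitin-conjugating enzyme of the anaphase-promoting complex, from 63.2, 4.98 and 67 to 755, 518 and 336. No 18 h array reached a 168 h array for these genes. Among replication genes Tk1, thymidine kinase 1, went from 55.9, 50.6 and 68.8 to 949, 583 and 405 (log2 fold change 3.09 ± 0.50 SE), Rrm2, a ribonucleotide reductase subunit, from 229.8, 173 and 227 to 3269, 1368 and 1222 (2.99), and Pole, a DNA polymerase epsilon subunit, rose by 2.87. Of the replicative helicase, Mcm3 to Mcm7 rose and Mcm2 did not pass the test. The exception in the mitosis list was Cenpa (0.58; limma adjusted p = 0.18).

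Replicate 1 of the 168 h Ly-6B+ group was its highest array for all 32 mitosis genes and for 30 of the 33 replication genes. Without it 30 mitosis and 16 replication genes were called higher, and Mcm3 and Mcm4 were among those not called. Mcm3 was also not called without 168 h Ly-6B+ replicate 2 or 18 h replicate 1. The bone marrow monocytes of naive mice had a mean Mki67 signal of 20652, the 72 h macrophages 6229 and the resident macrophages 2249. The progenitor list moved in the same arrays, with a summed signal of 1864 to 2134 at 18 h and 8609 to 10014 at 168 h over 11 genes. Of these Prtn3 (proteinase 3) was called, from 1657, 1353 and 1523 to 9395, 9387 and 8089, while Mpo (myeloperoxidase) was 41.1, 69.9 and 89.2 and then 55.8, 35.8 and 51.5 and 5 of the 11 stayed below the filter level in all 6 arrays. Without Prtn3 the sum was 477 to 514 at 18 h and 277 to 619.5 at 168 h.

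Promoters of the mitosis genes are shown because the list moved as a whole. The cell cycle homology region, searched as TTTGAA on both strands, and the CCAAT box, searched on both strands, were looked for from 250 bases before to 50 bases after the RefSeq gene start (GRCm38.p6). TTTGAA was found in 21 of the 27 mitosis genes with a promoter in the table (77.8%), in 3 of 27 replication genes (11.1%), and in 14.4% of the 9875 genes tested with a promoter (20.2% of all 27025). In other lists searched, TTTGAA was in 7 of 16 alternative activation members (43.8%) and 6 of 15 classical monocyte members (40%). It was in 4 of 20 resident macrophage members (20%) and 1 of 16 cholesterol synthesis members (6.25%). CCAAT was found in 20 of the 27 mitosis genes (74.1%), in 15 of 27 replication genes (55.6%) and in 42.8% of genes tested with a promoter (41.1% of all). Matches of CCAAT on opposite strands can share bases, as at one place in Ube2c, and a CCAAT can share 1 base with a TTTGAA. A match describes the letters and is not a bound site. The promoters of Ube2c (chr2:164769679-164769978, plus strand) and Cdk1 (chr10:69352863-69353162, minus strand) follow 5' to 3' on the strand of the gene, with both motifs in capitals.
Ube2c: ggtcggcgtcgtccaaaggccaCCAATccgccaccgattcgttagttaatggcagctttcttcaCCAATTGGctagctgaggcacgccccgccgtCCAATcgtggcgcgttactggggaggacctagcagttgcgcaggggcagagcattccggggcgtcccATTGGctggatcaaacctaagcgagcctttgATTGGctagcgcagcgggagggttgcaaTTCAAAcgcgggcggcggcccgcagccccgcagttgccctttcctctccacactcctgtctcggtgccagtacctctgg
Cdk1: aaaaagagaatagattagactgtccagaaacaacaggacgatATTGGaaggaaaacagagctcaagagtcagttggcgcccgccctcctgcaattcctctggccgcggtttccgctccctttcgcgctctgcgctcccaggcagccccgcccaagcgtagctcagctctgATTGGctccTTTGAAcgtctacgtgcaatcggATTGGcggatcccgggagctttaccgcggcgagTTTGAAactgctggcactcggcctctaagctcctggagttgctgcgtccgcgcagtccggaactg
Ube2c held 7 matches and Cdk1 held 5. In Cdk1 TTTGAA lay at -71 to -66 and at -15 to -10 from the gene start, and in Ube2c its reverse complement lay at -29 to -24.

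Of 20 enzymes and regulators of cholesterol synthesis tested 6 fell and none rose, with a median of -0.31. Sqle, squalene epoxidase, read 2039, 1254 and 1652 at 18 h and 249, 355 and 294 in the 168 h Ly-6B+ arrays (log2 fold change -2.39 ± 0.30 SE; limma adjusted p = 5.0e-06). Cyp51, lanosterol demethylase, went from 1072, 643 and 963 to 203, 196 and 188 (log2 fold change -2.08 ± 0.20 SE; limma adjusted p = 1.7e-07), and Idi1, an isomerase of the isoprenoid units, from 2295, 1628 and 2584 to 729, 721 and 575 (-1.64). All 3 genes were lowest in the 168 h arrays without overlap, near their Ly-6B- means of 152, 114 and 391. Fdft1, Hmgcs1 and Fdps fell by 1.51, 1.34 and 1.31. Insig1, Dhcr7 and Ebp were close to no change and were not called. The 18 h replicate 2 was the lowest 18 h array for 17 of the 20 genes.

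CCAAT was present in the promoter window of all 16 members of the list with a promoter in the table, against 42.8% of genes tested with one. The windows of Cyp51 (chr5:4104648-4104947, minus strand) and Idi1 (chr13:8885356-8885655, plus strand) are shown as members that fell, with CCAAT, on either strand, in capitals.
Cyp51: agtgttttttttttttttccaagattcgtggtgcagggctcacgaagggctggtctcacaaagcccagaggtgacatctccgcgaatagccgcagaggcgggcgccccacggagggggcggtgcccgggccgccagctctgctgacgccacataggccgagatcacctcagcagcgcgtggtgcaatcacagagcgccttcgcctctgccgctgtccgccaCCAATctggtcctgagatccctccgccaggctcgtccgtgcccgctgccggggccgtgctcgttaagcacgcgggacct
Idi1: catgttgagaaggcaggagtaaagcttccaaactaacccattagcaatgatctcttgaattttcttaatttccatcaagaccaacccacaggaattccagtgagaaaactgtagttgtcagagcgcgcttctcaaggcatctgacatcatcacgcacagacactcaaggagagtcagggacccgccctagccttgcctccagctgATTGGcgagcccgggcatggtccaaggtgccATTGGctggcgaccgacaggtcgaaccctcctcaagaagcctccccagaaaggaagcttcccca
Cyp51 held 1 match and Idi1 held 2. Of the other fixed motifs, the PU.1 core GAGGAA (both strands) was found in 9 of 20 resident macrophage members with a promoter (45%) and in 30.5% of genes tested with one. It was in 50% of alternative activation, 40% of classical monocyte, 29.6% of mitosis, 25.9% of replication and 18.8% of cholesterol synthesis members. The STAT6 palindrome (TTC and GAA with 4 bases between) was in 3 of 16 alternative activation members (18.8%) and in 6.49% of genes tested with a promoter. Of the 4 alternative activation members that fell and had a promoter, 0 held it.

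Lipid handling genes gave 7 higher and 2 lower of 24 tested. Fabp4, a fatty acid-binding protein, read 336, 331 and 357 at 18 h and 4119, 4980.2 and 3183 at 168 h (log2 fold change 3.50 ± 0.26 SE; limma adjusted p = 5.1e-09), 27.2% of the Ly-6B- mean. Fabp7 (2.42) and Fabp5 (1.53) of the same family rose, as did Acaca (acetyl-CoA carboxylase; 1.71), Mylip, Cd36 and Apoc2. Scd2, a stearoyl-CoA desaturase, fell from 7373, 5504 and 5798 to 1427, 1252 and 1055 (log2 fold change -2.31 ± 0.31 SE) and the nuclear receptor Pparg from 144, 194 and 102 to 51.3, 10.2 and 28.8.

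Genes of glycolysis and hypoxia gave 8 lower and 1 higher of 23 tested (median -0.37). Tpi1, triosephosphate isomerase, read 12690.4, 10972 and 14848 and 3411, 4685 and 4237 (log2 fold change -1.64 ± 0.13 SE; limma adjusted p = 1.4e-08). Pgk1, phosphoglycerate kinase, read 23422, 24202 and 29893 and 9489, 8171 and 8988 (-1.53), and Slc2a1, the glucose transporter GLUT1, read 2378, 2245 and 3023 and 731, 843 and 886 (-1.61). The 168 h arrays were low in each and did not overlap the 18 h arrays. Hif1a, the oxygen-regulated transcription factor, fell by 1.16, and Pgam1, Bnip3, Slc16a3 and Egln3 fell, of which Slc16a3 was not called without 168 h Ly-6B+ replicate 3 or 18 h replicate 1. Adm rose by 1.21, from signals below the filter level at 18 h, and was not called without 168 h Ly-6B+ replicate 1 or 3 or 18 h replicate 1 or 2. None of the 28 respiratory chain genes was called by limma (0 of 28, with a median of -0.26 and 14 at an unadjusted p under 0.05). All 14 of these were lower at 168 h, and only 3 of the 28 had a positive log2 fold change. The lowest was -0.73, so none reached the minimum fold that a call requires.

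The lysosome list gave 3 higher and none lower of 23 tested. Glb1 (beta-galactosidase) rose from 1037, 971 and 990.1 to 3055, 3239.7 and 2734 (log2 fold change 1.57 ± 0.13 SE) and stood at 34.5% of the Ly-6B- mean. Man2b1 (1.10) and Naglu (1.24), both lysosomal glycosidases, rose. In the iron and heme list 2 of 18 rose, Cp (the ferroxidase ceruloplasmin, from 51.9, 96.6 and 142 to 1082, 1545 and 1083; 3.55) and Blvrb (biliverdin reductase B; 1.59). In the NRF2 antioxidant list 1 of 18 rose, Gclm (a subunit of the glutathione synthesis enzyme; 1.26). None fell in these 3 lists. Over all genes tested 6.93% rose and 2.79% fell, so counts this small are not read as a result about the lists.

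The growth factor and matrix list gave 4 higher and 6 lower of 24 tested. Timp1 read 1583, 1879 and 1833 at 18 h and 78.7, 64.1 and 134 at 168 h, whereas Timp2, of the same inhibitor family, rose from 5370.0, 3674 and 4744 to 14716, 18744 and 19279.8 (log2 fold change 1.94 ± 0.21 SE; limma adjusted p = 1.0e-06). Thbs1, thrombospondin 1, rose from 1819, 2531 and 701 to 8205, 7415 and 7642 (2.38). The proteases Mmp8 (-2.07), Mmp14 (-1.80), Mmp19 (-1.96) and Adam8 (-2.04) fell together with Vcan.

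Pattern recognition genes gave 5 higher and 3 lower of 23 tested. Marco, a scavenger receptor for bacteria, rose from 836, 869 and 1263 to 4277, 8448 and 6865 (log2 fold change 2.67 ± 0.66 SE; limma adjusted p = 0.0046), 34.7% of the Ly-6B- mean. Clec4d, a C-type lectin receptor, rose from 9195, 6801 and 6161 to 20582, 18618 and 20737 (1.45), and Clec4n, which encodes the yeast mannan receptor Dectin-2, fell from 2967, 2621 and 1634 to 457, 346 and 412 (log2 fold change -2.49 ± 0.19 SE). The 2 lectin genes moved in opposite directions, each without overlap. Nod1 (1.43), Tlr7 (732, 841 and 551 and then 1614, 1642 and 1624) and Tlr3 (1.09) rose, and Tlr1 (-1.99) and Tlr5 (-1.51) fell. Tlr3 was not called without 168 h Ly-6B+ replicate 1 or 18 h replicate 2 (log2 fold change under 1).

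Among transcription factors and growth receptors of macrophages 5 members rose and 1 fell of 28 tested. Besides Gata6, Id2, an inhibitor of helix-loop-helix factors, rose from 5123, 7019 and 7303 to 21031, 18958 and 21832 (log2 fold change 1.68 ± 0.20 SE), Csf3r, the G-CSF receptor, by 1.48, and Id3 and Rarb by 1.32 and 1.12. Maf, a macrophage transcription factor, fell from 13782, 13544 and 12887 to 6475, 5268 and 7569 (-1.07). Without 168 h Ly-6B+ replicate 2 the list had 3 higher and 0 lower, as Id3, Rarb and Maf were not called, and under quantile normalization it again had 3 and 0. Id3 was also not called without 168 h Ly-6B+ replicate 1 or 18 h replicate 1, nor Rarb without 18 h replicate 3.

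None of the 25 genes of the interferon response list was called by limma (median -0.053; 8 at an unadjusted p under 0.05). Without 18 h replicate 3, 3 were called higher, without 168 h Ly-6B+ replicate 1 it was 1, and under quantile normalization 3. Guanylate-binding and immunity-related GTPase genes, which interferon gamma is known to induce, were picked after their values were seen. Of 6 guanylate-binding genes tested 3 rose, of 4 immunity-related GTPase genes 2 rose, and none fell. Gbp2b read 517, 616 and 1104 at 18 h and 12462, 14842 and 11814 in 168 h Ly-6B+ arrays (log2 fold change 4.17 ± 0.27 SE; limma adjusted p = 9.4e-10). Iigp1 read 71.9, 97.2 and 632 and 3355, 5795 and 5123 (log2 fold change 4.65 ± 0.98 SE; limma adjusted p = 0.0012). Its 4 h arrays read 7746, 315 and 122, so the 4 h mean of 2728 rested on replicate 1. The highest 18 h array was replicate 3 for both Gbp2b and Iigp1, and no 18 h array reached a 168 h array. Gbp6 (2.90), Gbp8 (2.86) and Irgm2 (1.28) rose as well, Gbp6 and Gbp8 with no call when the Gapdh ratio was a covariate (limma adjusted p of 0.057 and 0.081). Members of these families are close in sequence, so probes may read more than 1 of them.

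Further genes, also picked after their values were seen, are given with the counts of their families. Lgals1, galectin-1, read 29156, 22565 and 33493 at 18 h and 2323, 3377 and 4363 at 168 h (log2 fold change -3.10 ± 0.20 SE; limma adjusted p = 9.2e-10), and Lgals3, galectin-3, fell by 1.14, while the other 4 of 6 galectins tested were not called. Of 9 S100A genes, which encode calcium-binding proteins, S100a4 and S100a6 (-2.28) fell, S100a1 and S100a16 rose and 5 were not called. Of 12 genes of the MS4A family 4 fell, Ms4a4c, Ms4a6b (-2.40), Ms4a7 (-2.32) and Ms4a4b, 8 were not called, and probes of this family may also cross-read. S100a16 was not called without 168 h Ly-6B+ replicate 1 or 3 or 18 h replicate 2 or 3, nor Ms4a4b without 168 h Ly-6B+ replicate 3 or any 1 of the 18 h arrays.

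**Figure D4:**
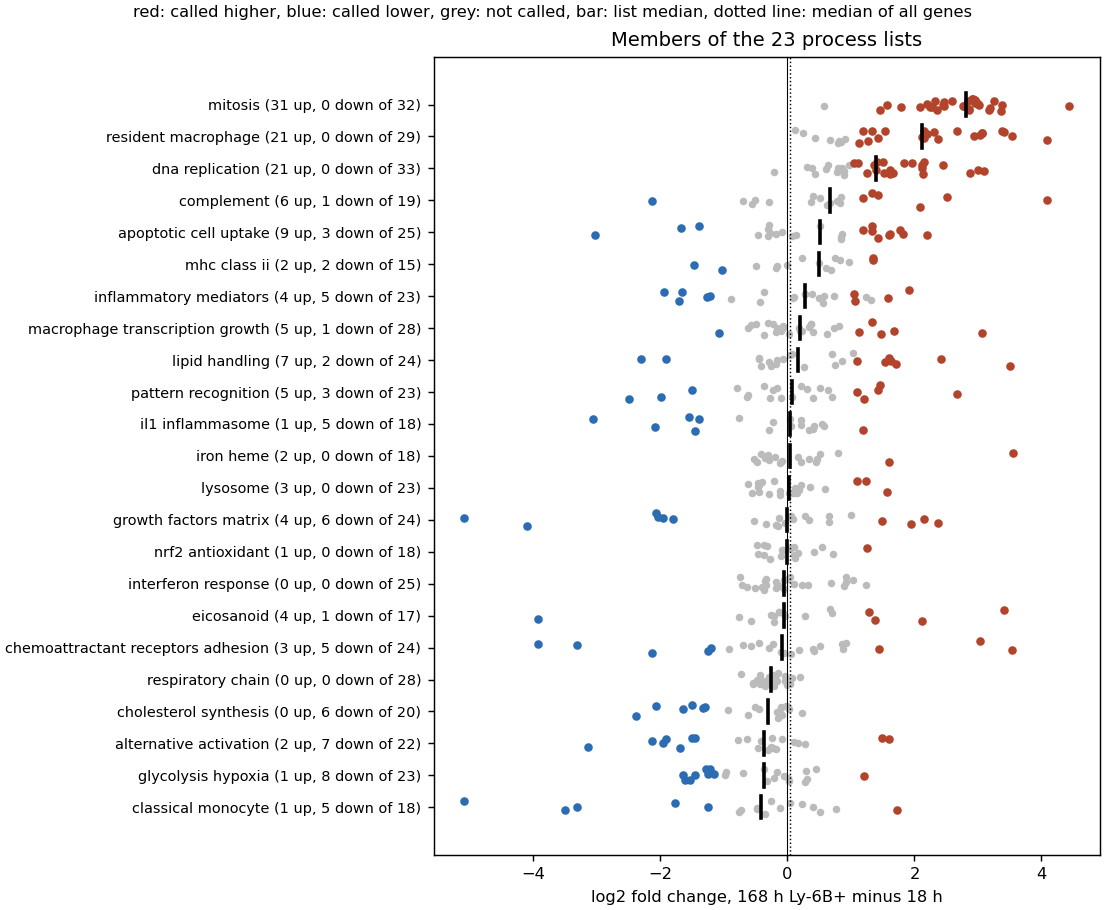
Log2 fold change (168 h Ly-6B+ minus 18 h) of each tested member of the 23 process lists (points), with called members in red (higher) and blue (lower), the list median as a bar and the median of all genes tested as a dotted line. Mitosis (2.81), resident macrophage (2.12) and DNA replication (1.40) have the highest medians.

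Genes of other cell types were measured beside these results. The neutrophil list of 13 genes summed to 6692 to 8618 at 18 h and 20276 to 20577 at 168 h, and the rise lay in Padi4 (an arginine deiminase; 4192, 2604 and 2915 to 12434, 12091 and 13249) and Csf3r. Its defining members S100a8 (521, 566 and 289, then 677, 641 and 428) and S100a9 (56.7, 116 and 41.7, then 76, 57.3 and 52.1) were not called, and the Ly-6B- macrophages had a Padi4 mean of 13292. The eosinophil list rose through Alox15, while Siglecf, Epx, Ccr3, Il5ra and Prg3 were below the filter. The platelet list summed to 9769 to 12310 at 18 h and 15694 to 21796 at 168 h with none of 5 tested members called, 10 of 14 mesothelial and fibroblast genes were below the filter, and Pdpn (podoplanin) of that list fell by 2.21. B cell genes summed to 6858 to 8394 at 18 h and 5359 to 7277 at 168 h, T and NK cell genes to 1420 to 1681 and 1077 to 1208, dendritic cell genes to 3507 to 4536 and 2386 to 3080, mast cell genes to 934 to 1038 and 1245 to 1382, and erythroid genes to 227 to 410.4 and 187 to 358. Within them Ighm (the IgM heavy chain; -1.81) and 2 dendritic cell genes, Itgax among them, fell. Ighm was not called when any 1 of the 6 arrays was left out (limma adjusted p of 0.061 to 0.1). The part of other cells in the results was not tested. Of 22 handling stress genes, Egr3 and Fosb rose (1.51 and 1.32), and none of 16 ribosomal protein genes was called by limma (2 at an unadjusted p under 0.05).

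**Figure D5:**
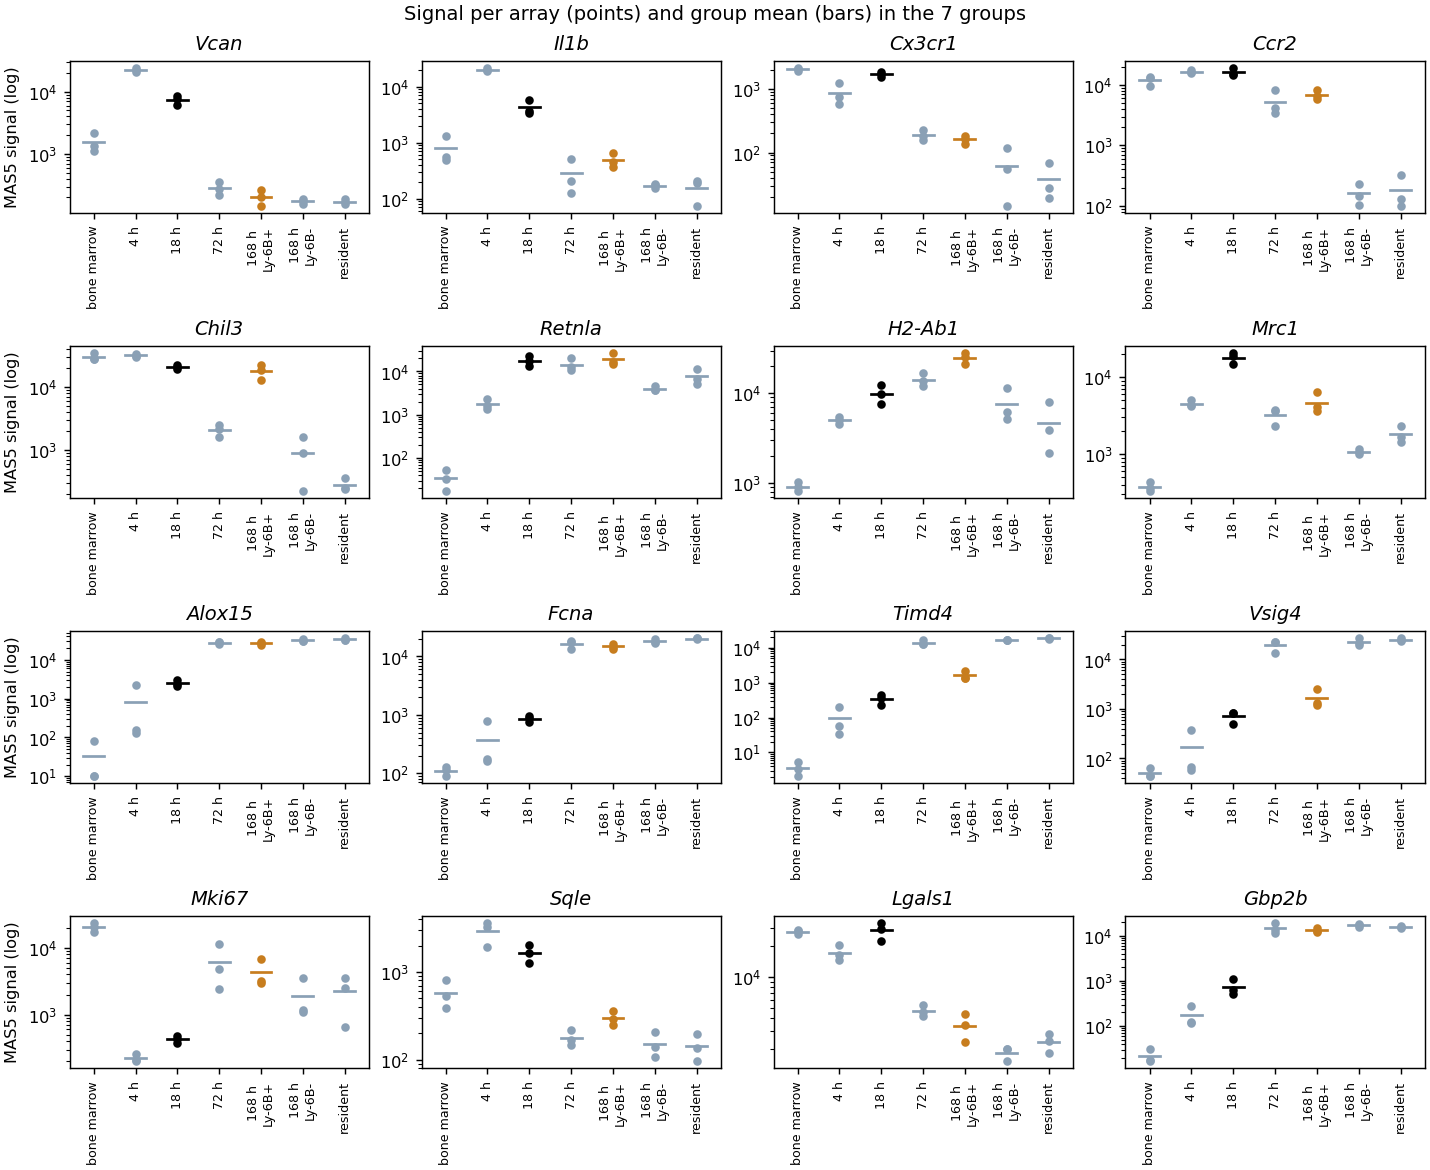
MAS5 signal on a log axis in each array (points) with group means (bars) for 16 genes over the 7 groups, 18 h in black and 168 h Ly-6B+ in orange. In the 168 h Ly-6B+ macrophages Chil3 and Retnla are not called against 18 h, H2-Ab1 is higher and Ccr2 lower. Chil3, Retnla, H2-Ab1 and Ccr2 all lie above their Ly-6B- levels there. Vcan, Il1b, Cx3cr1 and Lgals1 are low in the 168 h Ly-6B+ macrophages, and Timd4 and Vsig4 lie between the 18 h and the Ly-6B- levels.

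The course over the 7 groups places both populations. Vcan was 1551 ± 566 (SD, n = 3) in bone marrow monocytes, 22389.7 ± 1518 at 4 h, 7358 ± 1237 at 18 h, 282 ± 73.2 at 72 h and 205 ± 59.5 in the 168 h Ly-6B+ macrophages. It was thus already low at 72 h. Timd4 was 96 ± 87.2 at 4 h, 347 ± 107 at 18 h, 13914 ± 2274 at 72 h, 1622 ± 449 in 168 h Ly-6B+, 16913 ± 519 in 168 h Ly-6B- and 18633 ± 532 in resident macrophages. The 72 h macrophages, sorted by a different gate, were therefore far above the 168 h Ly-6B+ macrophages for this gene. H2-Ab1 was 5000.0 ± 501 at 4 h, 9874 ± 2289 at 18 h, 14234 ± 2585 at 72 h, 24911 ± 3453 in 168 h Ly-6B+ and 4635 ± 2947 in resident macrophages, highest in the Ly-6B+ cells. Chil3 was 30178 ± 3718 in bone marrow monocytes, 31522 ± 1829.7 at 4 h, 20843 ± 1431 at 18 h, 17871 ± 4519.9 in 168 h Ly-6B+ and 908 ± 687 in 168 h Ly-6B- macrophages. The fits that call genes against 18 h and against Ly-6B- share the 168 h Ly-6B+ arrays, so each is given by its own values.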

How the data were processed

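Peritoneal lavage cells were antibody-stained and sorted, and 100 ng of TriZol-extracted RNA was amplified and labelled in a pair of cycles for Affymetrix arrays, per the labels' protocols. Amplification over a pair of cycles shortens transcripts towards the 3' end, which the control ratios track. The deposited values are linear MAS5 intensities, which the authors made with Affymetrix Expression Console 1.2, per the submitters' processing notes. The trimmed mean (2% at each end) of every array came to 500.0, as checked on the values. There were 45101 probe sets and 21 columns. Detection calls and raw image files were not used here, and the 15 added before the logarithm limits fold changes near the floor. For arrays, their number (3 per group) limits the precision.

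A total of 34958 probe sets had 1 symbol in the platform annotation given, 932 had several and 9211 were not listed, and the latter 2 kinds were left out. For each of 18194 genes the brightest probe set on average was used, and genes above 80.6 (the median of all values) in at least 3 of the 21 arrays were tested, 12169 in all. A low gene thus passed if it was high in 1 group. The fit used limma 3.58.1 under R 4.3.3 (lmFit, then eBayes with a trend, 2-sided) over all 21 arrays in 7 groups (14 residual degrees of freedom). It was tested on simulated data.

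The members and the 36 gene lists (23 of processes, 13 of quality or cell types, 771 entries, 68 of them not analysed here) were chosen with earlier results of these data known, so no list was tested. Lists are described by counts and medians. Named genes were the 12 largest changes each way among called genes without overlapping arrays, 5 markers, the 3 largest called members of each process list in each direction, 12 reference genes and the 2 highest members of each quality or cell type list. Other list members named, and the genes said to be picked after their values were seen, fall outside that rule.

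The replicate numbers were checked for pairing by the correlation of residuals over genes between arrays of the same number. It was 0.296, 0.276 and 0.178 between the 168 h groups, and 0.086, -0.034 and 0.093 between 168 h Ly-6B+ and 18 h. Neither comparison was fitted as paired for the values given, and the replicate block was an alternative for both. The alternatives were pseudocounts of 1 and 60, a common array median, quantile normalization, a filter at the 75th percentile or none, averaging of a gene's probe sets, array weights, no trend, the Gapdh covariate, the replicate block, the 6 arrays alone, limma's treat or no minimum fold, and each array left out in turn. Promoters were taken from RefSeq (GRCm38.p6).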

Additional observations from a re-analysis of the deposited data

How the results depend on the processing

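Of the counts of genes called in 168 h Ly-6B+ against 18 h, 843 higher and 339 lower, those under most alternatives lay within 1.5 times. Without a minimum fold they were 1922 and 1419, and with limma's treat 216 and 102. Leaving out 1 array gave 754 to 860 higher and 330 to 362 lower. Against the 168 h Ly-6B- macrophages, 187 genes were higher and 293 lower. Without a minimum fold these were 432 and 561, with treat 29 and 69, with 1 array left out 152 to 189 and 257 to 280, and under the 75th percentile filter the lower count was 186, with fewer genes tested. With the replicate block 852 and 344 genes were called against 18 h and 190 and 305 against Ly-6B-, and it changed no call of a gene given in the text. The text names 163 genes called in the first comparison and gives 16 called in the second, of which 119 and 14 kept their call under every alternative other than treat in which they were tested, 83 and 8 under treat as well, and none reversed. Retnla, which was not called, changed sign with a common array median (-0.013) and with the Gapdh covariate (-0.076), and lay between -0.15 and 0.30 with 1 array left out. Chil3, also not called, was 0.058 with that covariate. The cause of these changes was not tested. Other probe sets above the filter were looked for in 115 called genes, some of them picked after their values were seen. Only 50 of these genes had any, so the others could not be checked in this way. Of 105 such probe sets, 102 changed with the same sign and none was called in the opposite direction. The exceptions were among those of Prune2 (log2 fold changes of -1.94 to 0.079) and Ighm (-0.63 to 0.55). Signals close to the floor limit the fold of genes such as Nuf2 and Sult1a1 at 18 h.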
